A study of Mus musculus with 26 samples.

Results

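The endothelin system was described in immunoprecipitates labelled as astrocyte RNA from the mouse retina and optic nerve. Its 7 genes were the 3 endothelin ligands Edn1, Edn2 and Edn3, the receptors Ednra and Ednrb, and the converting enzymes Ece1 and Ece2, found by their gene identifiers among the 54532 genes of the deposited table. The samples were 6 retinal immunoprecipitates (retina IP), 7 immunoprecipitates from the optic nerve head (ONH IP), 7 from the optic nerve proper, the myelinated part behind it (ONP IP), and 6 retinal input libraries. All came from untreated mice at day 0 and were made from poly(A) RNA with an ultra-low input Smart-Seq kit. The genotype, strain, sex and age of the mice, the protein that was immunoprecipitated, and the number of mice behind a library are not given in the sources used here, so the p-values measure only the spread between these libraries. All 12 retinal libraries belong to batch 2. Of the nerve libraries, 6 of each region belong to batch 1, taken from earlier work, and replicate 7 of each is a bridging library prepared and sequenced with batch 2.

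Endothelins are short secreted peptides cut from longer precursors; the converting enzymes make the last cut, which gives the active peptide. They act through 2 G protein-coupled receptors. Ednra binds endothelin-1 and endothelin-2 more tightly than endothelin-3 and is best known for constricting vascular smooth muscle, whereas Ednrb binds all 3 ligands about equally. In nervous tissue Ednrb is a receptor of astrocytes, and endothelin has long been studied in the optic nerve as a constrictor of its vessels and as a trigger of astrocyte reactivity.

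The genes lie apart in the mm10 genome. Edn1 is at chr13:42301476-42307990 on the plus strand, Edn2 at chr4:120161206-120167360 (plus), Edn3 at chr2:174760619-174784042 (plus), Ednra at chr8:77663031-77724464 (minus), Ednrb at chr14:103814625-103844402 (minus), Ece1 at chr4:137862237-137965229 (plus) and Ece2 at chr16:20629828-20646485 (plus). On the opposite strand, exons of 4933431K23Rik overlap those of Ednra and had 31 counts over all libraries against 1412 of Ednra, and Gm49333, whose exons overlap those of Ece2 on the same strand, had 0 counts. The stretch of exon 2 that encodes each active peptide is shown to make plain how alike the ligands are. It was found in the GENCODE M21 transcripts by the spacing of its cysteine codons and its closing tryptophan codon, at chr13:42303649-42303711, chr4:120161951-120162013 and chr2:174761749-174761811, and capitals mark the 4 cysteine codons that hold the peptide's loops together.
Edn1: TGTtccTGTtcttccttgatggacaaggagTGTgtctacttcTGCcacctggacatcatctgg
Edn2: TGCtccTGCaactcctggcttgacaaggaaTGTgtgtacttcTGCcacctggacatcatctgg
Edn3: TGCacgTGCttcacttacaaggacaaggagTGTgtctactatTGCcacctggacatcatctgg
Edn1 and Edn2 shared 53 of these 63 bases and encoded the same residue at 18 of 21 codons. Edn3 shared 50 bases with Edn1 and 48 with Edn2, and encoded the same residue at 15 codons with either.

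Library totals were 14703195 to 24966236 estimated counts in retina IP, 14812762 to 26407745 in ONH IP, 14051088 to 27431026 in ONP IP and 11164619 to 18417001 in retinal input. Levels are given in CPM, counts relative to the library's total after TMM scaling. The summed CPM of 10 astrocyte genes was 6163 to 30212 in retina IP, 6347 to 30082 in ONH IP, 11585 to 36788 in ONP IP and 3737 to 6075 in retinal input, and all 10 genes were counted in every group. Genes listed as markers of other cells were counted too, but which cells they came from in each region was not tested. Summed in retina IP, ONH IP, ONP IP and input, 8 Müller glia genes had medians of 9578, 13240, 9215 and 3258 CPM, 8 microglia genes 151, 1574, 2425 and 240 CPM, 8 fibroblast genes 61.8, 1098, 382 and 23.7 CPM, and 5 horizontal cell genes 225, 72.7, 85.9 and 328 CPM. Of the 5 horizontal cell genes, 4 averaged under 1 CPM in ONP IP, so the sum there came almost wholly from the remaining gene. The 8 retinal ganglion cell genes summed to 847 to 4871 CPM in retina IP. The 8 oligodendrocyte genes summed to 27465 to 72075 CPM in ONH IP and 35815 to 122454 CPM in ONP IP, and exceeded the astrocyte sum in 6 of 7 libraries of either region. The bridging ONH library stood apart with 27604 CPM of 9 rod photoreceptor genes, against 86.4 to 618 CPM in the other 6 ONH libraries. Y-linked genes summed to at least 702 counts in each batch 1 library and to at most 1 count in each batch 2 library, so batch and the sex of the mice cannot be told apart.

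Per kilobase of exon, which allows genes to be compared, Ednrb had the highest mean of the system in every group. That mean was 55.0 CPM per kb in retina IP, 307 in ONH IP, 190 in ONP IP and 9.34 in retinal input. Ece1 came next in retina IP, at 6.90 CPM per kb, and in retinal input, at 8.82. In ONH IP the next levels were Edn3 at 4.34 and Ece1 at 4.17 CPM per kb, and in ONP IP they were Ece1 at 4.39 and Edn3 at 1.40. In retina IP replicates 1, 5 and 6 the leading pair were close, with Ednrb at 10.8, 16.9 and 15.03 and Ece1 at 12.7, 11.4 and 11.5 CPM per kb. The remaining genes stayed at or below 1.00 CPM per kb in every group.

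Ednrb, the receptor of astrocytes that binds all ligands, was measured at 45.9, 316, 341, 568.2, 72.3 and 64.1 CPM in retina IP replicates 1 to 6. Retinal input replicates 1 to 6 had 15.6, 38.1, 26.2, 37.3, 56.7 and 65.1 CPM. Retina IP replicates 2, 3 and 4 were far above any input, replicate 5 was slightly above the highest input, and replicates 1 and 6 lay inside the input range. The fitted log2 difference, retina IP over input, was 2.69 ± 0.63 (SE, n = 6 and 6) with an unadjusted p of 0.00075 and an adjusted p of 0.0578 (edgeR quasi-likelihood test, Benjamini-Hochberg), so Ednrb did not pass. That comparison called 0 of 15181 genes, or 0%, and 0 of the 6 members tested. Without adjustment 3356 genes, or 22.1%, and 1 member were under 0.05, and DESeq2 called 2072 genes, among them Ednrb with an adjusted p of 0.000719. Ednrb also passed without the filter on low counts (adjusted p = 0.0455), with all 26 libraries in 1 fit (0.00189), without retina IP replicate 1 (0.0322) and without retina IP replicate 5 (0.0423). Over all 19 alternatives the difference stayed between 2.16 and 2.91 and the adjusted p between 0.000719 and 0.175. In bulk libraries such as these, fewer cells of a type and less RNA per cell cannot be told apart.

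The retina IP libraries with high Ednrb were also those with high astrocyte genes and high Müller glia genes. Retina IP replicates 2, 3 and 4 had summed astrocyte markers of 17461, 26518 and 30212 CPM and ganglion cell markers of 1894, 1409 and 847 CPM. Replicates 1, 5 and 6 had 6163, 6991 and 8812 CPM of astrocyte markers and 4871, 4515 and 4811 CPM of ganglion cell markers. Müller glia genes summed to 11860, 13879 and 14424 CPM in retina IP replicates 2, 3 and 4. In replicates 1, 5 and 6 they summed to 4712, 4527 and 7296 CPM. Set against the astrocyte sum, Ednrb was 0.728% to 1.88% in retina IP and 0.364% to 1.15% in input, and the groups overlapped. The mean percentages were 1.25% in retina IP and 0.795% in input, a difference of 0.452 with a two-sided exact permutation p of 0.0974, or 0.113 adjusted over 4 such tests (n = 6 and 6). Aldoc, a glycolytic enzyme gene of that list, made up most of the astrocyte sum in every retinal library. Without Aldoc the difference was 0.768 (two-sided exact permutation p = 0.268, unadjusted). These within-library percentages were chosen after values had been seen. Mitochondrial genes took 0.384%, 1.03%, 2.11%, 2.23%, 0.155% and 0.259% of counts in retina IP replicates 1 to 6 and 2.79% to 15.2% in input. The retina IP libraries with high Ednrb thus also held the larger mitochondrial shares of their group; the part of these contents in the Ednrb difference was not tested otherwise.

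In the nerve, Ednrb was at 1568, 1243, 1169, 1368, 1690, 1655 and 470 CPM in ONH IP replicates 1 to 7. ONP IP replicates 1 to 7 had 363, 534, 735, 793, 1504, 1318 and 425 CPM. Within batch 1 the ONH libraries were tightly grouped and the ONP libraries spread widely, and 3 of 7 ONH libraries were above every ONP library. The log2 difference of 0.64 ± 0.46 (SE, n = 7 and 7), ONH IP over ONP IP, had an adjusted p of 0.432. ONH IP was the higher in 6 of 6 same-numbered pairs of batch 1. With the number as a block in place of the batch term, over all 20 immunoprecipitates, the difference was 0.75 (adjusted p = 0.379). Retina IP libraries shared those blocks although their numbers did not match the nerve, and no fit paired the nerve libraries alone. Batch 1 alone gave 0.72 with an adjusted p of 0.0936. This comparison called 1223 of 16355 genes, or 7.48%, and 0 of the 6 members tested.

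Relative to the astrocyte genes of the same library, Ednrb was higher in the nerve head. Within batch 1 it was 10.02%, 7.14%, 5.66%, 6.44%, 5.62% and 9.71% of the summed astrocyte genes in ONH IP replicates 1 to 6, and 2.33%, 3.16%, 3.86%, 3.91%, 4.09% and 4.72% in ONP IP replicates 1 to 6. The groups did not overlap. The means were 7.43% in ONH IP and 3.68% in ONP IP, a difference of 3.75. Same-numbered libraries deviated together, so they were taken as pairs. ONH IP was higher in 6 of 6 pairs, with an exact permutation p of 0.0312, unadjusted and the smallest that 6 pairs can give. With the pairs ignored, the two-sided exact permutation p was 0.00216, or 0.00866 adjusted over the 4 tests. That p is the smallest that 6 against 6 libraries can give, and its test treats paired libraries as independent. The percentage was chosen after values had been seen. How many other genes would separate the regions when set against the same sum was not tested. The batch 2 libraries gave 7.41% in ONH IP and 3.67% in ONP IP. Leaving out Gfap, the intermediate filament gene that takes a large share of the sum in the nerve, left the groups of batch 1 apart with the same unpaired p. So did leaving out Aldoc. Without Gfap, however, the gap in batch 1 was narrow, between 14.1% in ONP IP replicate 5 and 14.8% in ONH IP replicate 3. The batch 2 ONH library, at 13.1% without Gfap, lay below ONP IP replicates 5 and 6, at 14.1% and 14.0%. Other cells differed between these regions as well. Melanocyte and pigment cell genes were higher in ONH IP for 7 of 7 genes tested, beside 725 of all 16355 genes tested. Their summed levels were 22.1 to 367 CPM in ONH IP and 2.67 to 13.0 CPM in ONP IP. The part of pigment cells in the percentage was not tested.

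**Figure D1:**
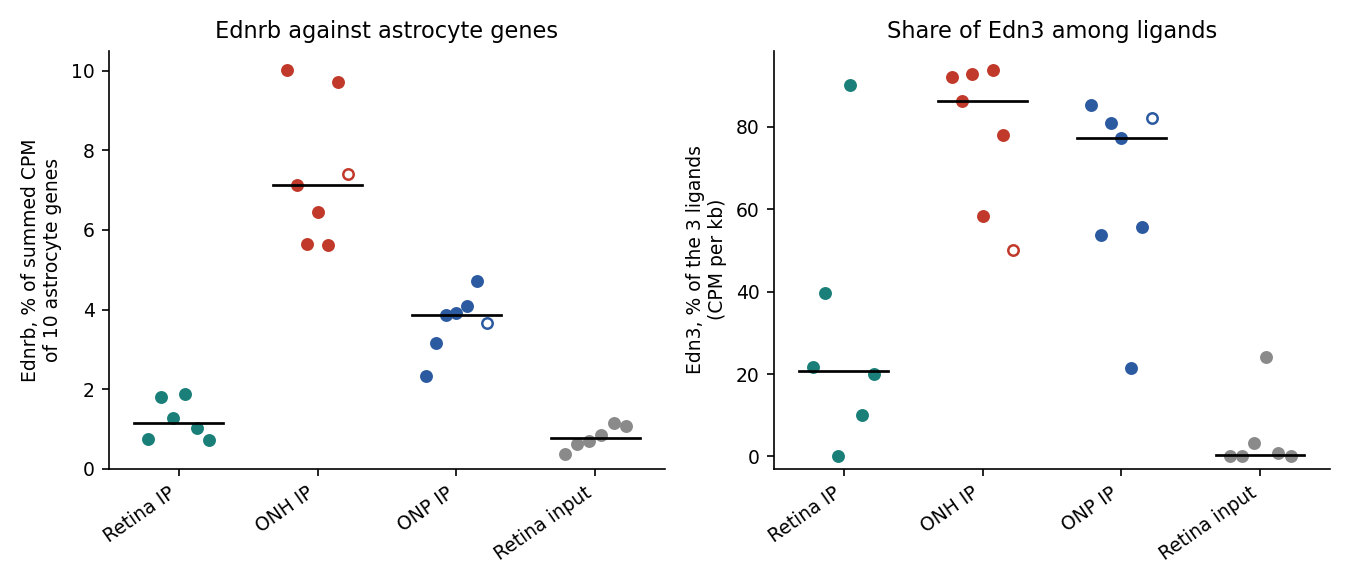
Left, Ednrb as a percentage of the summed CPM of 10 astrocyte genes; right, Edn3 as a percentage of the 3 ligands in CPM per kb; 1 point per library in retina IP, ONH IP, ONP IP and retinal input, with group medians as lines and batch 2 nerve libraries as open points. The Ednrb percentage is 5.62 to 10.02 in ONH IP and 2.33 to 4.72 in ONP IP; the retinal sums are made up differently, with more Aldoc and less Gfap, so retina and nerve are not compared on it.

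Retina IP had less Ednrb than most nerve libraries, and the size of that difference depended on how batch was handled. The batch term rests on the 2 bridging libraries. The ONH one held 27604 CPM of 9 rod photoreceptor genes, against 639 to 7385 CPM in the retinal inputs. Every difference of retina IP from the nerve that is given with the batch term shares this limit. The part of that rod content in the differences was not tested. With the batch term, the log2 difference of retina IP from ONH IP was -1.25 ± 0.70 (SE, n = 6 and 7; adjusted p = 0.177), and that from ONP IP was -0.61 ± 0.70 (n = 6 and 7; adjusted p = 0.54). The difference from ONH IP passed without retina IP replicate 4 (-1.68, adjusted p = 0.0491). In CPM, 5 of 6 retina IP libraries were below every ONH library and 5 of 6 were below every ONP library. Without the batch term the differences were -2.45 from ONH IP (adjusted p = 0.000721) and -1.77 from ONP IP (adjusted p = 0.00722), but region and batch are then largely the same split. Within batch 2, retina IP differed from the single ONH library by -0.80 (adjusted p = 0.777) and from the single ONP library by -0.59 (adjusted p = 0.787). Both bridging libraries, at 470 CPM in ONH IP and 425 CPM in ONP IP, lay between the second highest retina IP library, at 341 CPM, and the highest, at 568.2 CPM. The astrocyte sum was no common measure for retina and nerve. Aldoc averaged 11851 CPM in retina IP, 2229 in ONH IP and 2301 in ONP IP, and Gfap 1703, 11017 and 14005 CPM in the same order. With Aldoc left out, Ednrb was 3.02% to 6.57% of the sum in retina IP and 2.66% to 5.22% in ONP IP, which overlapped, and 6.22% to 12.3% in ONH IP. These comparisons called 5532 of 16355 genes, or 33.8%, for retina IP against ONH IP and 5371, or 32.8%, for retina IP against ONP IP. Of the 6 members tested, 0 were called in either.

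Ednra, the receptor that constricts smooth muscle, was low throughout. Retina IP libraries had 0.890, 0.244, 0.0489, 2.69, 1.04 and 0.259 CPM in replicates 1 to 6. ONH IP libraries ranged from 0.984 through a median of 4.71 to 8.01 CPM, ONP IP libraries from 2.09 through 4.70 to 7.32 CPM, and retinal inputs from 0 through 1.04 to 3.14 CPM. The nerve regions overlapped almost fully, and 4 of 6 retina IP libraries were below every ONH library. The log2 difference of retina IP was -1.29 ± 0.86 (SE, n = 6 and 7) from ONH IP and -1.40 ± 0.88 (n = 6 and 7) from ONP IP, with adjusted p of 0.258 and 0.237. Both comparisons passed when retina IP replicate 4 was left out, with differences of -2.03 from ONH IP (adjusted p = 0.0461) and -2.15 from ONP IP (0.0403), and both passed without the batch term, at -2.24 (0.00636) and -2.38 (0.00406). Pericyte and smooth muscle genes, cells in which Ednra is well known, summed to 24.7 to 90.6 CPM in retina IP, 406 to 1446 CPM in ONH IP, 290 to 742 CPM in ONP IP and 23.8 to 293 CPM in input. Of 9 such genes tested, 7 were lower in retina IP than in each nerve region. Of all 16355 genes tested, 3452 were lower than in ONH IP and 3255 lower than in ONP IP. The part of these cells in the Ednra values was not tested.

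Between the receptors, Ednrb made up nearly all of the receptor level per kilobase. It was 98.5% to 99.99% in retina IP, 99.5% to 99.95% in ONH IP, 99.0% to 99.7% in ONP IP and 86.5% to 100% in input. The mean shares were 99.4% in retina IP and 96.3% in input (two-sided exact permutation p = 0.113, adjusted 0.113, n = 6 and 6). In batch 1 they were 99.7% in ONH IP and 99.5% in ONP IP, a difference of 0.245 percentage points. With same-numbered libraries as pairs, the exact permutation p was 0.0938, unadjusted. With the pairs ignored, the two-sided exact permutation p was 0.0649 (adjusted 0.113, n = 6 and 6). Without ONH IP replicate 3 that p was 0.013, and without ONP IP replicate 2 it was 0.0433, both unadjusted.

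Edn3, the ligand that with Ednrb is needed for melanocyte and enteric neuron development, was the ligand that varied most. ONH IP replicates 1 to 7 had 33.4, 18.5, 39.2, 6.13, 2.04, 20.8 and 5.00 CPM. ONP IP replicates 1 to 7 had 11.9, 4.84, 5.01, 7.90, 0.337, 5.12 and 5.12 CPM. Of the ONH libraries, 4 of 7 were above every ONP library and replicate 5 was below all but 1 of them. The log2 difference, ONH IP over ONP IP, was 1.54 ± 0.75 (SE; adjusted p = 0.223), and 1.77 in batch 1 alone (adjusted p = 0.0912). Fibroblast genes summed to 1299, 1177, 1267, 701, 738, 1098 and 589 CPM in ONH IP replicates 1 to 7, and pigment cell genes to 313, 358, 367, 41.5, 22.1, 137 and 170 CPM. The 4 ONH libraries with the most Edn3 were the 4 with the most fibroblast genes. In ONP IP, replicate 1 had the most of both, with 1364 CPM of fibroblast genes against 238 to 450.4 CPM in the others. Among those others the 2 did not run together. Replicate 4, next in Edn3 at 7.90 CPM, had 316 CPM of fibroblast genes, and replicate 5, lowest at 0.337 CPM, had 382 CPM. The part of these cells in the Edn3 values was not tested.

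Retinal libraries held little Edn3. Retina IP replicates 1 to 6 had 0.534, 1.33, 0, 4.38, 0.692 and 0.712 CPM, from 164 counts in all. The inputs had 24 counts in all, 21 of them in replicate 4, and 3 of 6 inputs were at 0. The log2 difference, retina IP over input, was 2.45 ± 1.25 (SE, n = 6 and 6; adjusted p = 0.266), and 4.94 (adjusted p = 0.0875) without input replicate 4. Against ONH IP, retina IP was lower by a log2 difference of -2.90 ± 1.15 (SE; adjusted p = 0.0573), which did not pass, with 5 of 6 retina IP libraries below every ONH library. It passed with DESeq2 (-2.86, adjusted p = 0.0377), without ONH IP replicate 5 (-3.03, 0.0393), without retina IP replicate 4 (-3.78, 0.0113) and without the batch term (-3.77, 0.00114). Without ONP IP replicate 7 it was -1.96 (0.33), and within batch 2 -1.76 (0.585). Against ONP IP the difference was -1.36 ± 1.09 (n = 6 and 7; adjusted p = 0.362), and without the batch term -2.14 (0.0322). It was -0.19 (0.963) without ONP IP replicate 7 and -2.25 (0.0966) without retina IP replicate 4.

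The genes with the pattern most like that of Edn3 over the 26 libraries were Sox18, an endothelial transcription factor, then Lbp and Tmem204. Likeness was the root mean square difference of the centred log2(CPM + 1) values, which was 0.617 for Sox18, 0.707 for Lbp and 0.741 for Tmem204, against a spread of 1.65 in Edn3 itself. The list of 11 endothelial genes was set beside Edn3. In each group of immunoprecipitates the library with the lowest endothelial sum was also the lowest in Edn3: retina IP replicate 3 with 51.4 CPM of endothelial genes and Edn3 at 0, ONH IP replicate 5 with 22.5 CPM and Edn3 at 2.04 CPM, and ONP IP replicate 5 with 36.3 CPM and Edn3 at 0.337 CPM. ONH IP replicate 5 and ONP IP replicate 5 were also the lowest of their groups in microglia genes, at 251 and 332 CPM. The highest libraries did not match. The highest endothelial sums were 273 CPM in retina IP replicate 6, 382 in ONH IP replicate 1 and 215 in ONP IP replicate 2. Edn3 in these was 0.712, 33.4 and 4.84 CPM. The highest Edn3 was in retina IP replicate 4, ONH IP replicate 3 and ONP IP replicate 1, at 4.38, 39.2 and 11.9 CPM. The sum is made up differently in retina and nerve. Kdr and Flt1, receptors for vascular endothelial growth factor, averaged 96.2 and 32.01 CPM in retina IP, 24.7 and 15.7 in ONH IP, 8.99 and 13.4 in ONP IP and 65.5 and 36.8 in input. The other 9 genes summed to 8.90 to 33.9 CPM in retina IP, 18.5 to 309 CPM in ONH IP, 31.2 to 186 CPM in ONP IP and 18.2 to 77.7 CPM in input. The 3 libraries with the lowest sum of all 11 genes were again the lowest of their groups. This split was chosen after the values were seen. With all 11 genes the group ranges of the sum overlapped, at 51.4 to 273 CPM in retina IP, 22.5 to 382 CPM in ONH IP, 36.3 to 215 CPM in ONP IP and 81.1 to 258 CPM in input. The fit called 6 of 10 tested endothelial genes lower in retina IP than in ONH IP, beside 3452 of all 16355 genes tested. The part of endothelial cells in the Edn3 values was not tested.

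**Figure D2:**
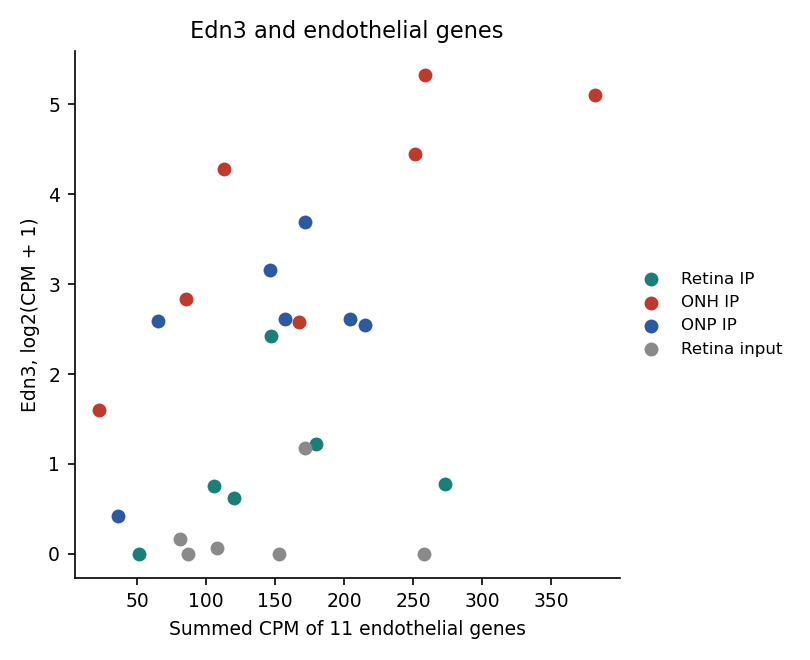
Edn3 on a log2(CPM + 1) axis against the summed CPM of 11 endothelial genes, 1 point per library, coloured by group. Kdr and Flt1 carry the sum in the retina and the other genes in the nerve, so the sums are not alike in make-up. The ONH IP library with 22.5 CPM and the ONP IP library with 36.3 CPM are the lowest of their groups in both. The ONP IP library with the highest sum, 215 CPM, has Edn3 at 4.84 CPM, below the highest of its group, 11.9 CPM.

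Edn1, the vessel-constricting ligand made by endothelial cells, was low in every group. Retina IP libraries ranged from 0 through a median of 0.969 to 3.23 CPM, ONH IP libraries from 0.0703 through 1.42 to 3.05, ONP IP libraries from 0.576 through 0.999 to 2.16, and inputs from 0.816 through 2.16 to 3.52. All groups overlapped. The log2 difference was -0.85 ± 0.80 (SE) for retina IP against input, 1.36 ± 1.27 against ONH IP, 1.42 ± 1.23 against ONP IP and 0.06 ± 0.72 for ONH IP against ONP IP, with adjusted p of 0.596, 0.427, 0.403 and 0.974. The differences of retina IP from the nerve turned negative without the batch term, at -0.13 for ONH IP and -0.0043 for ONP IP.

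Edn2, a ligand that stressed photoreceptors are known to induce in mice, was barely counted. It had 65 counts over the 26 libraries and none in 17 of them, which allows a level of up to 0.107 to 0.408 CPM in those libraries by counting error alone. ONH IP held 51 of the counts, 34 in bridging replicate 7 and 16 in replicate 4, while retina IP held 3, ONP IP 1 and input 10. Rod photoreceptor genes summed to 27604 CPM in replicate 7 and to 431 CPM in replicate 4; their part in the Edn2 counts was not tested. Edn2 failed the filter on low counts and was not tested; the other 6 genes passed it in all 4 comparisons.

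Among the ligands, per kilobase, Edn3 was 20.9% at the median in retina IP (0 to 90.2%), 86.4% in ONH IP (50.2% to 93.8%), 77.4% in ONP IP (21.6% to 85.3%) and 0.369% in input (0 to 24.1%). The nerve medians were the higher ones, while the 4 ranges overlapped with their neighbours. The retinal percentages rest on few counts, 139 of Edn1 and 164 of Edn3 over the 6 retina IP libraries.

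Ece1, the main converting enzyme, varied in retina IP in the opposite order to Ednrb. Retina IP replicates 1 to 6 had 67.3, 20.2, 6.11, 4.53, 60.4 and 60.9 CPM. ONH IP libraries ranged from 8.29 through a median of 20.6 to 32.8 CPM, ONP IP libraries from 13.2 through 23.4 to 37.6 and inputs from 17.6 through 37.4 to 84.0. The retina IP libraries fell on both sides of the nerve range, and replicates 3 and 4 were below every other library of the series. The ratio of Ednrb to Ece1 in CPM was 0.683, 15.6, 55.7, 125, 1.197 and 1.05 in retina IP replicates 1 to 6, 14.3 to 204 in ONH IP, 9.65 to 114 in ONP IP and 0.775 to 1.04 in input. The log2 difference was -0.31 ± 0.60 (SE) for retina IP against input, 0.56 ± 0.77 against ONH IP, 0.46 ± 0.81 against ONP IP and -0.10 ± 0.48 for ONH IP against ONP IP, with adjusted p of 0.83, 0.604, 0.703 and 0.926.

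**Figure D3:**
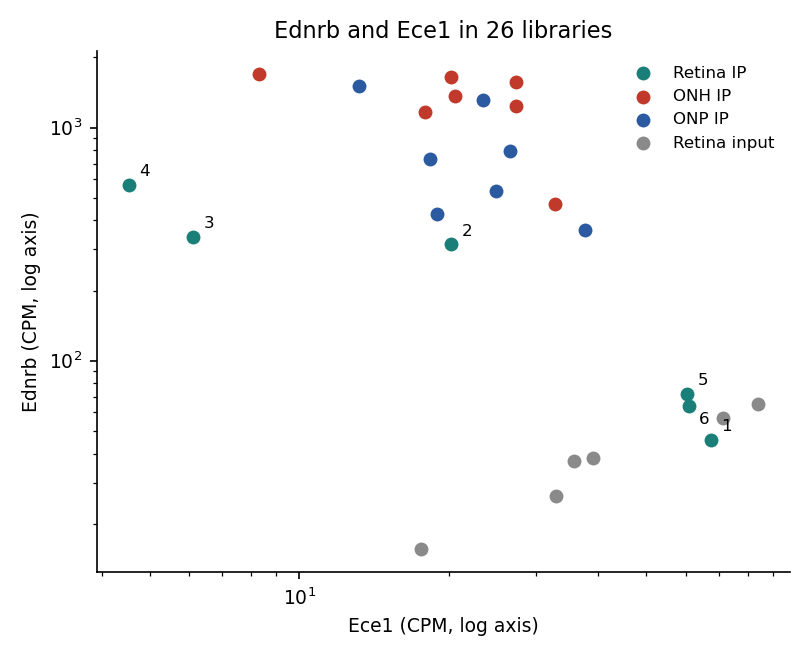
Ednrb against Ece1, both in CPM on log axes, 1 point per library; numbers are retina IP replicates. Retina IP replicates 1, 5 and 6 lie near the inputs, with a ratio of 0.683 to 1.197, and replicates 2, 3 and 4 lie on the side of the nerve libraries, with a ratio of 15.6 to 125.

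Ece2, the neuronal and endocrine converting enzyme that works at acid pH, stayed between 0.727 and 4.38 CPM over all libraries. Its mean was 2.08 ± 0.80 in retina IP (SD, n = 6), 1.74 ± 0.84 in ONH IP (n = 7), 2.47 ± 1.15 in ONP IP (n = 7) and 1.80 ± 0.55 CPM in input (n = 6). The 4 comparisons gave log2 differences of 0.27, 0.83, 0.26 and -0.57 with adjusted p of 0.795, 0.339, 0.772 and 0.393, in the order retina IP against input, against ONH IP, against ONP IP, and ONH IP against ONP IP.

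**Figure D4:**
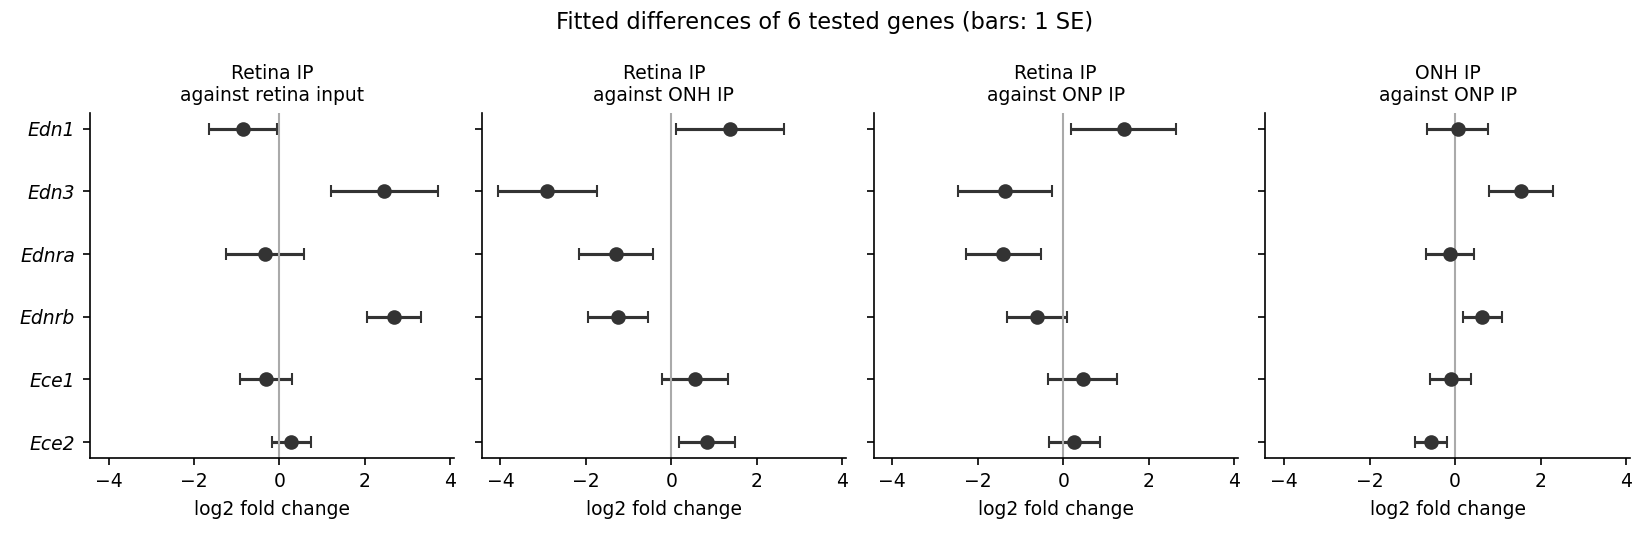
Fitted log2 differences with 1 SE of the 6 tested genes in the 4 comparisons; positive values are higher in the first-named group. The largest are Ednrb at 2.69 in retina IP against input and Edn3 at -2.90 in retina IP against ONH IP; none passed an adjusted p of 0.05.

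By median level, the order of the groups was ONH IP, ONP IP, retina IP and input for Ednrb and Edn3; for every member, groups next to each other in the order overlapped. Over all genes tested, the CPM ranges of the groups did not overlap for 4.56% of genes in retina IP against input, 22.9% against ONH IP, 28.2% against ONP IP and 1.94% in ONH IP against ONP IP; for the 7 members it was 0 in each. Genes most like Ednrb in pattern were Cpne2, Tst and Hhatl, with root mean square differences of 0.442, 0.51 and 0.535 against a spread of 2.15 in Ednrb. For Ednra they were Klf6, Kyat3 and Samhd1 (0.534, 0.561 and 0.575 against 0.955), and for Ece1 Dffa, Ctnna2 and Rnf128 (0.529, 0.55 and 0.572 against 0.958). For Edn1 (Sestd1, Psmb7, Sgsm2) and Ece2 (Tmem246, Adprh, Nceh1) the nearest genes were close to the flat pattern of the member itself.

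Of 12 other genes that process or break down endothelins or belong to the enzymes' family, 7 were tested in the retina and 8 in the immunoprecipitates. None passed in retina IP against input, 0 rose and 2 fell against ONH IP, 0 rose and 1 fell against ONP IP, and 1 rose and 0 fell in ONH IP against ONP IP. Over all genes tested, the shares called in either direction were 0%, 33.8%, 32.8% and 7.48% in the same order. Ecel1, a neuronal metalloprotease of the converting enzyme family, averaged 27.6 ± 12.7 CPM in ONH IP and 1.18 ± 0.94 CPM in ONP IP (SD, n = 7 each). Every ONH library, from 9.67 to 50.7 CPM, was above every ONP library, from 0.0721 to 2.88 CPM, and the log2 difference was 4.61 ± 0.60 (SE; adjusted p = 0.000182). Retina IP had 0 to 2.30 CPM of it, a log2 difference of -2.84 from ONH IP (adjusted p = 0.00826) that was -0.74 (0.88) without ONH IP replicate 7. Ctsa, a lysosomal carboxypeptidase known to inactivate endothelin-1, was 232 ± 36.3 CPM in retina IP (SD, n = 6), 531 ± 97.9 in ONH IP (n = 7) and 602 ± 111 in ONP IP (n = 7). Its log2 difference was -0.61 from ONH IP (adjusted p = 0.0154) and -0.80 from ONP IP (0.00245). Within batch 2 alone these were -0.44 (0.509) and -0.61 (0.274). The call against ONH IP was lost without ONH IP replicate 7 (0.0976) or ONP IP replicate 7 (0.0749), without the filter on low counts (0.0851), with all 26 libraries (0.0583) and with only the groups compared (0.173), and the call against ONP IP without ONP IP replicate 7 (0.0552). The list's median log2 difference was 0.91, 0.61, 0.43 and -0.06 in retina IP against input, against ONH IP, against ONP IP and in ONH IP against ONP IP, beside 0.02, -0.13, -0.10 and 0.02 over all genes tested.

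Of 21 genes for the G proteins, phospholipases and regulators downstream of the receptors, 20 were tested in the retina and 21 in the immunoprecipitates. None passed in retina IP against input, 4 rose and 1 fell against ONH IP, 4 rose and 5 fell against ONP IP, and 1 rose and 1 fell in ONH IP against ONP IP. The shares of all genes tested that were called in either direction were 0%, 33.8%, 32.8% and 7.48% in that order. Rgs4, which damps signalling from Gq-coupled receptors and is abundant in neurons, was 740 ± 216 CPM in retina IP (SD, n = 6), 24.2 ± 14.3 in ONH IP (n = 7), 16.1 ± 3.30 in ONP IP (n = 7) and 734 ± 323 in input (n = 6). Its log2 difference was 5.22 from ONH IP (adjusted p = 8.54e-06) and 5.79 from ONP IP (2.24e-06). Rgs5, a regulator of the same family known from pericytes, rose by 3.51 against ONH IP (adjusted p = 0.0238) and 4.57 against ONP IP (0.00598), and lost the first call without ONH IP replicate 7 (2.86, 0.188) or ONP IP replicate 7 (4.17, 0.0819) and the second without ONH IP replicate 7 (4.10, 0.0627) or ONP IP replicate 7 (5.41, 0.0541). Both calls of Rgs5 were also lost with only the groups compared (0.131 and 0.0659). Gna12, a G protein alpha subunit, fell by 3.09 on the log2 scale against ONH IP (0.00036) and fell by 3.29 against ONP IP (8.35e-05). Plcb1, a phospholipase C that Gq activates, rose by 2.71 against ONH IP (0.000507), and Plcb4, of the same family, rose by 3.17 against ONP IP (0.000627). Retinal input had 50.2 ± 17.0 CPM of Plcb1 and 66.4 ± 31.2 CPM of Plcb4 (SD, n = 6), beside 40.6 ± 21.3 and 63.7 ± 27.3 CPM in retina IP. Within batch 2 alone, the calls against ONH IP were lost for Ecel1 (-3.12, adjusted p = 0.237), Rgs5 (4.37, 0.212), Gna12 (-2.28, 0.169) and Plcb1 (2.84, 0.147), and that of Rgs5 against ONP IP was lost too (4.33, 0.157). In ONH IP against ONP IP, Plcb4 rose by 1.18 on the log2 scale (0.0345) and Gnai1, an inhibitory alpha subunit, fell by 1.25 on the log2 scale (0.0357). Gnai1 did not pass with the replicate number as a block over all immunoprecipitates (-1.31, 0.0551) or with all 26 libraries (0.062). Plcb4 did not pass with limma-voom (1.29, 0.09). The Plcb4 call was lost without any 1 of ONH IP replicates 1, 2, 3, 6 and 7 or ONP IP replicates 2, 3, 5, 6 and 7, with adjusted p up to 0.0894, and the Gnai1 call without any 1 of ONH IP replicates 1, 3, 5, 6 and 7 or ONP IP replicates 1, 2, 3, 4 and 7, with adjusted p up to 0.0785. The list's median log2 difference was 0.32, 0.30, -0.11 and -0.13 in the same 4 comparisons.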

How the data were processed

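Per the labels' protocols, poly(A) RNA was captured with oligo-dT beads and amplified with a Smart-Seq HT ultra-low input kit. Per the submitters' processing notes, Salmon 1.6.0 and mm10 were used; the deposited values are estimated counts per gene, given by the authors as whole numbers, and how transcripts were summed and rounded is not given in the sources used here. The table held 54532 genes, of which 54495 took a symbol from GENCODE M21, and 0 columns without a sample. No 2 libraries of the same group agreed within sampling noise, and pairs across groups were not checked. The members and the 2 pathway and 11 marker lists were chosen with earlier results of these data known.

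Levels are CPM on library totals scaled by TMM over the genes kept by the filter on 26 libraries; floors for a count of 0 are 3 counts and cover counting error only. Differences were tested with edgeR 4.0.16 (R 4.3.3): quasi-likelihood F tests after a filter (filterByExpr, minimum count 10, minimum total 15), with Benjamini-Hochberg adjustment over all genes and a threshold of 0.05. Retina IP against retinal input was fitted on 12 libraries, and the region comparisons on 20 immunoprecipitates with a batch term that only the 2 bridging libraries tie to the retina. The SE is the size of the log2 difference divided by the square root of F. The fits were also run on simulated counts without a batch effect, which could not check the batch term. Alternatives used limma 3.58.1, DESeq2 1.42.0, other size factors, other library sets and leaving out each library. Libraries of ONH IP and ONP IP with the same number deviated together (correlations of 0.121 to 0.545, 6 of 6 over 0.1, each best with its own number). The numbers were therefore taken as pairs in the permutation tests of these regions. The main edgeR fit held group and batch terms and did not use the pairs. The text names the members, up to 4 called genes per pathway list and comparison with at least 5 CPM in the higher group, and the 3 genes nearest in pattern to each member over 1 CPM. No protein sequences were used here. A gene of the rod photoreceptor list is not reported here and was left out of its sum.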

Additional observations from a re-analysis of the deposited data

Results flagged for a closer look

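In 6 of 28 sets of 1 gene in 1 group, a single library lay farther from the rest than Dixon's 95% limit; chance flags about 1 in 20. Retina IP replicate 4 was high in both Edn3, at 4.38 CPM, and Ednra, at 2.69 CPM, and it was also the retina IP library with the most pericyte and smooth muscle genes, at 90.6 CPM. Retinal input replicate 4 was high in Edn3, at 1.27 CPM, and had the most pericyte and smooth muscle genes of the inputs, at 293 CPM. The bridging ONH IP library, replicate 7, was low in Ednrb, at 470 CPM, and had the lowest astrocyte sum of its group, at 6347 CPM. Edn2 stood out in retinal input replicate 6, at 0.412 CPM from 8 counts, and in ONP IP replicate 1, at 0.04995 CPM from 1 count. The part of the other markers in these values was not tested.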

How the results depend on the processing

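Of 204 member values under alternatives other than leaving out 1 library, 178 kept their direction and side of the threshold, 15 passed it newly and 11 turned sign; of 430 with 1 library left out, 412, 7 and 11 did. Retina IP against input called 193 genes without the filter, 2072 with DESeq2, 2871 with all 26 libraries and 49 without inputs 1 and 2, and 1 member, Ednrb, in the first 3; leaving out 1 library gave 0 to 381 genes, with 381 without retina IP replicate 1, 246 without retina IP replicate 5 and 1 without input replicate 2, and 0 to 1 members. Retina IP against ONH IP called 3596 genes with all 26 libraries, 2069 with only the groups compared, 9454 with a replicate block in place of the batch term, 8465 without the batch term and 818 in batch 2 alone. It called 1 member without the filter (Edn2, the only one not tested otherwise) and 1 with DESeq2, and 3 under the block and without the batch term. Leaving out 1 library gave 2984 (without ONP IP replicate 7) to 6027 genes and 0 to 3 members (3 without retina IP replicate 4). Under the block, as without the batch term, retina against nerve is largely batch 2 against batch 1. Retina IP numbers also did not match the nerve: 0 of 6 were best with their own number in ONH IP and 1 of 6 in ONP IP. Retina IP against ONP IP called 9699 genes and 2 members under the block, 8851 and 3 without the batch term, 1690 genes in batch 2 alone, and 2155 (without ONP IP replicate 7) to 5741 genes and 0 to 1 members with 1 library left out. ONH IP against ONP IP called 2041 genes with DESeq2, 511 with all 26 libraries, 2294 with only the groups compared, 2445 in batch 1 alone and 601 to 1566 with 1 library left out, the lowest 5 without ONH IP replicates 1 or 3 or ONP IP replicates 2, 4 or 6. Of the pathway genes named, 15 of 126 values lost their call under other alternatives and 28 of 280 with 1 library left out; none turned sign.

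Signs turned only for differences that did not pass. With limma-voom, Ece1 was -0.13 in retina IP against ONH IP and -0.20 against ONP IP, and Edn1 -0.076 in ONH IP against ONP IP. Under the block, Edn1 was -0.60 against ONH IP and -0.44 against ONP IP, and Ece2 -0.28 against ONP IP. Without the batch term, Edn1 was -0.13 and -0.0043 and Ece2 -0.22 against ONP IP; Ece2 there was -0.19 with only the groups compared and -0.018 in batch 2 alone. With 1 library left out, Ednra in retina IP against input ranged from -1.18 to 0.22, Ece1 against ONP IP from -0.078 to 0.99, and, in ONH IP against ONP IP, Ece1 from -0.25 to 0.064, Edn1 from -0.24 to 0.27 and Ednra from -0.32 to 0.074; Ece2 against ONP IP ranged from -0.20 to 1.12. The cause was not tested. In the retina the numbers of IP and input did not meet the rule for pairs (4 of 6 correlations over 0.1, and 4 of 6 libraries best with their own number); with the replicate block Ednrb was 2.21 (adjusted p = 0.175). In ONH IP against ONP IP the block, which also took in the retina IP libraries, called 1288 genes against 1223. Of the members and named pathway genes, it changed only the call of Gnai1. The low counts of Edn1, Edn2, Edn3 and Ednra in the retina limit what could be detected there.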
